A study of Mus musculus with 6 samples.

Results

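The genes described here encode the sarcomeric actins (Acta1 and Actc1), the tropomyosins (Tpm1, Tpm2, Tpm3 and Tpm4), the tropomodulins Tmod1 and Tmod4, and the leiomodins Lmod2 and Lmod3. They were followed through every probe set, a group of short oligonucleotides that reads 1 transcript region, for which the platform annotation of the array gives exactly 1 of these gene symbols. This gave 20 of the 45101 probe sets on the array, at least 1 for each of the 10 genes. Transcript levels were measured on 6 Affymetrix mouse arrays, with total RNA of primary myoblasts from mice labelled as 21 days of age. In 3 samples the cells had been infected with lentivirus carrying a short hairpin RNA (shRNA), in the vector Tet-pLKO-puro, that targets the long non-coding RNA LncMyoD, and 3 samples were labelled as control myoblasts. The labels do not say what the controls received, whether an inducer was given, or whether growth or differentiation medium was in use. The labels call the replicates biological but name no animals or cultures, and p-values therefore reflect the variation among these 6 arrays, part or all of which could be technical.

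The thin filament of muscle is a polymer of actin along which tropomyosin lies as a continuous strand that, with troponin, gates the binding of myosin. Tropomodulins cap the slow-growing (pointed) end of the filament, and the related leiomodins promote assembly of actin at that same end, so that both families bear on filament length. Differentiating myoblasts switch from nonmuscle actins and tropomyosins to the muscle forms, and the tropomyosin genes give rise to muscle and nonmuscle proteins through alternative promoters and splicing.

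The study set out to examine LncMyoD in skeletal muscle differentiation, and the question here is how thin filament transcripts differed after its targeting. Under the shRNA, Lmod2 was 2.39-fold lower, Tpm4 1.35-fold lower and Actc1 1.23-fold lower, whereas Tpm3 was 1.34-fold higher. Acta1 and Tmod1 were lower by less, the probe sets of Tpm1 moved both ways, 3 of 4 probe sets of Tpm2 and that of Lmod3 did not pass the test, and Tmod4 was too dim to test. Values are the authors' normalized log2 signals, on which a difference of 1 is a 2-fold change. Each difference is shRNA minus control, errors after ± are SDs over n = 3 arrays, and tests are limma's, with Benjamini-Hochberg adjustment over the 27023 probe sets tested and a threshold of 0.05. Of the 20 probe sets 19 could be tested; that of Tmod4 lay among the 40% of probe sets with the lowest mean and was left out. Of the 19, 6 were higher in the shRNA samples, 7 were lower and 6 did not pass the threshold. Among all tested probe sets 30.4% were higher and 23.5% lower, 53.9% in all, so the share called here, 68.4%, stood against a background in which most probe sets were called. The arrays of the 2 groups did not overlap in 13 of the 19, or 68.4%, against 59.5% of all tested probe sets. The deposited arrays already shared their median over all probe sets, so centring used the median of each array over the tested probe sets alone. After that step, meant below wherever arrays are called centred, 5 of the 19 were higher and 10 lower. Over all tested probe sets, the share of the calls that were higher became 45% instead of 56.4%. The balance of directions therefore depended on the scaling. Fewer lower calls, 4, were made without control 3 or without shRNA array 1.

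**Figure D1:**
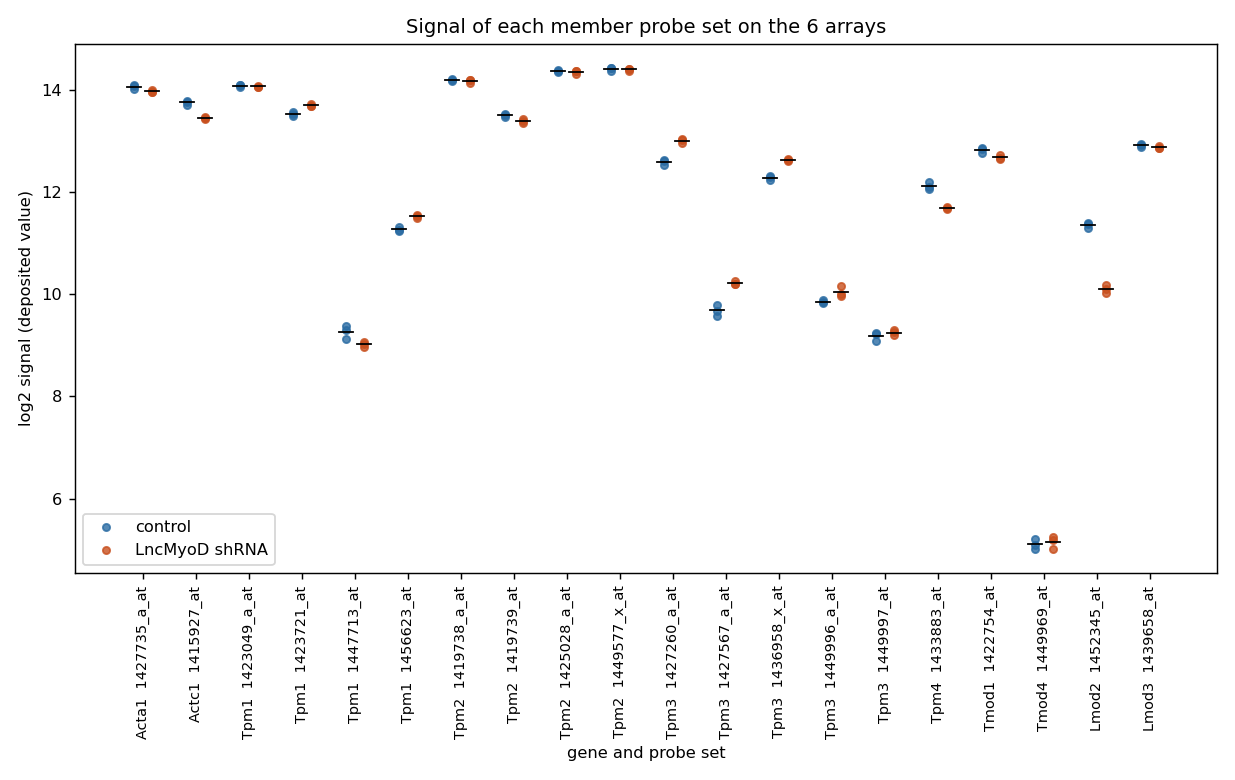
Log2 signal (vertical axis) of the 20 probe sets of the 10 genes on each array, with blue points for 3 control arrays, orange points for 3 LncMyoD shRNA arrays and a black bar for each group mean. Lmod2 shows the widest gap, from 11.36 to 10.10, and Tmod4 lies far below the others, at 5.10 and 5.15.

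Depth has no counterpart on arrays, and their number limits the precision. All 6 arrays shared a median of 7.23 over all probe sets. The SD between replicates of the 19 probe sets lay between 0.022 and 0.13 in controls and between 0.010 and 0.11 in shRNA samples. The 3' minus 5' log2 signal of actin controls, which reflects RNA integrity, was 0.51 ± 0.018 in controls and 0.55 ± 0.017 in shRNA samples, and that of GAPDH 0.14 ± 0.045 and 0.23 ± 0.038 (two-sided exact permutation p = 0.1 for each, the smallest that 20 assignments allow). All 8 myoblast and myotube markers were tested, and they moved in opposite directions. The markers of satellite cells and myoblasts Pax7 (11.40 in controls and 12.06 in shRNA samples), Myf5 (7.43 and 8.05) and Cdh15 (12.32 and 12.72) were higher, by 0.66, 0.62 and 0.40. The differentiation markers Ckm, muscle creatine kinase (10.53 and 9.11), Mymk, a factor of myoblast fusion (13.54 and 13.30), and Myog (14.13 and 14.00) were lower, with differences of -1.41, -0.24 and -0.13. Myod1 (13.80 and 13.82) and Des (13.22 and 13.26) did not pass. Their summed log2 signal, in which these opposite differences offset each other, ran from 96.0 to 96.8 on control arrays and from 96.1 to 96.6 on shRNA arrays. All 7 markers of cardiac muscle, a tissue that also uses Actc1 and Lmod2, lay below the filter, with summed log2 signals of 40.5 to 40.9 in controls and 39.8 to 40.5 in shRNA samples. The 4 endothelial markers lay below the filter as well, at sums of 23.1 to 23.6 and 22.8 to 24.0. Of the other lists, 3 of 4 leukocyte, 3 of 7 fibroblast and 1 of 6 smooth muscle markers lay below it. The sums ran from 21.7 to 22.6 and 22.0 to 23.7 for leukocytes, from 47.6 to 48.2 and 47.2 to 48.5 for fibroblasts, and from 52.8 to 53.1 and 52.3 to 52.8 for smooth muscle, whose list shares Actg2 and Lmod1 with the actin filament genes below. Tested markers moved both ways. Of fibroblasts, Pdgfra was higher by 0.89, and Col3a1 and Col1a1 were lower by 0.51 and 0.42. Of smooth muscle, Tagln and Smtn were lower by 0.75 and 0.45 and Actg2 was higher by 0.44. Cd68, the one leukocyte marker tested, was higher by 0.33 (6.40 and 6.73, limma adjusted p = 0.0331). The part of RNA integrity, of the differentiation markers and of these cell types in the differences below was not tested. In bulk RNA, fewer cells of a type and less RNA per cell cannot be told apart.

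Both sarcomeric actins were lower in the shRNA samples, Actc1 more than Acta1. Actc1, cardiac alpha-actin, is also the form made early in skeletal muscle differentiation. Its probe set 1415927_at read 13.79, 13.71 and 13.77 on control arrays 1 to 3 and 13.43, 13.45 and 13.48 on the shRNA arrays. All 3 shRNA arrays lay below all controls, and the signal fell by 0.30 (SE 0.034, limma adjusted p = 8.05e-06), 1.23-fold. Acta1, skeletal alpha-actin and the main actin of adult skeletal muscle, read 14.10, 14.02 and 14.09 in controls and 13.97, 14.00 and 13.97 in shRNA samples on probe set 1427735_a_at. These groups did not overlap, but the lowest control, 14.02, lay close to the highest shRNA array, 14.00. Acta1 was lower by 0.088 (SE 0.033, 95% interval -0.16 to -0.016, limma adjusted p = 0.0386). Acta1 no longer passed when control 1 (-0.072, limma adjusted p = 0.0959) or control 3 (-0.079, 0.131) was left out, nor without shRNA array 1 (-0.083, 0.0702), 2 (-0.097, 0.0790) or 3 (-0.084, 0.0992). It was also lost without a variance trend (adjusted p = 0.156) and without the filter on low signals (0.0511). The within-array difference Acta1 minus Actc1 stood at 0.32, 0.31 and 0.31 in controls and at 0.54, 0.55 and 0.49 in shRNA samples. The pair thus shifted by 0.21 towards Acta1, in the same direction in every comparison of arrays (two-sided exact permutation p = 0.1, the smallest possible, and 0.167 adjusted over 5 pairs of related genes).

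The actin promoters hold an exact match to a motif, and the other searched promoters of these genes do not. The CArG box is the binding motif of serum response factor (SRF), known as an activator of actin genes. Here it was searched as CCWWWWWWGG, with W for A or T and no mismatch allowed. RefSeq promoter windows (build GRCm38.p6) were found for 9 of the 10 genes, in 10 windows, and the 250 bases before each transcription start were searched on both strands. A CArG box was present in the windows of Acta1 and Actc1, beginning 73 and 47 bases before the start, and in no other of the 10; of all 32851 windows 1.47% held one. Lmod2, with the largest difference of the group, had no full CArG box there. It shares with Acta1 the octamer AAATATGG, which in Acta1 lies inside the CArG box, and which 0.648% of windows held. In Lmod2 the octamer follows the bases CT, where the box has CC. That octamer was picked after the sequences had been read. The E-box CANNTG, the motif of myogenic factors, was found for Acta1, Lmod2, Tmod4, Tpm1, Tpm2 and both windows of Tpm3, against 66.2% of all windows. The muscle motif MCAT (CATTCC), which TEAD factors bind, was found for Acta1, Tmod1 and Tpm1, against 12.6%, and the MEF2 site in none, against 2.92%. A match describes letters only, and no binding was measured. Shown 5′ to 3′ on the gene's own strand are 100 bases of the 2 actin promoters, with the CArG box in capitals, and of the Lmod2 promoter, with the shared octamer in capitals.
Acta1 (chr8:123894799-123894898, minus strand): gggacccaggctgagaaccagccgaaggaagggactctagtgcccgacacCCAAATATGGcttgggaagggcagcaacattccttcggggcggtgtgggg
Actc1 (chr2:114052876-114052975, minus strand): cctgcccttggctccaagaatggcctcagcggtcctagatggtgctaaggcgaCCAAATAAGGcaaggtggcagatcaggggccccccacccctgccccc
Lmod2 (chr6:24597527-24597626, plus strand): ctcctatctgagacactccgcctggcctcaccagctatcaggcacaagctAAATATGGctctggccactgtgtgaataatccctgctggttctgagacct

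Transcripts of the factor that binds this motif, and of its coactivators, were measured as well. Srf itself read 12.12 in controls and 12.13 in shRNA samples on its brightest probe set (difference 0.0024, 95% interval -0.099 to 0.10, limma adjusted p = 0.971). A dimmer probe set of Srf passed as lower, falling from 9.10 to 8.80, by 0.29 (limma adjusted p = 0.0131). Of the actin-sensing coactivators of SRF, Mrtfa was higher by 0.39 (SE 0.049, limma adjusted p = 2.57e-05) and Mrtfb lower by 0.15 (SE 0.038, limma adjusted p = 0.00438). A dimmer probe set of Mrtfb was also lower, with a difference of -0.27 (limma adjusted p = 0.0473). These transcripts therefore did not move in a common direction, and the activity of the proteins was not measured.

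**Figure D2:**
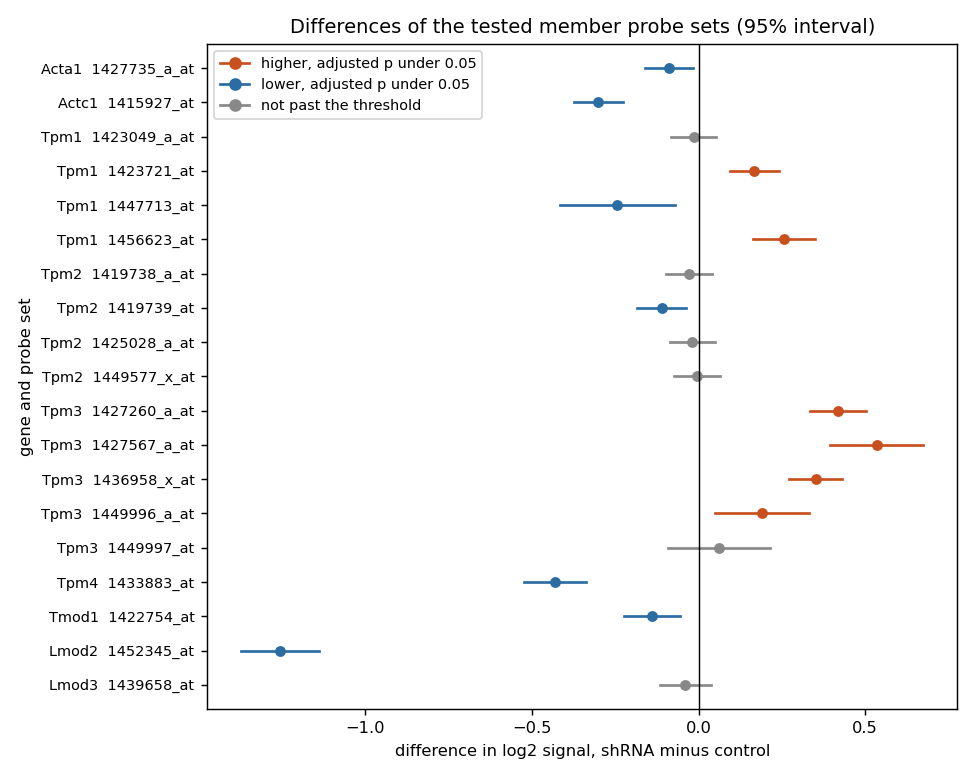
Difference in log2 signal, shRNA minus control (horizontal axis), for the 19 tested probe sets, with points for the estimate and lines for limma's 95% interval. Orange marks 6 higher, blue 7 lower and grey 6 probe sets that did not pass; Lmod2 lies alone at -1.26 and the probe sets of Tpm3 lie to the right of 0.

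The tropomyosin genes moved in different directions: Tpm3 was higher, Tpm4 lower, Tpm1 mixed and Tpm2 lower on 1 of its 4 probe sets. Tpm3, which encodes the tropomyosin of slow muscle fibres and several nonmuscle forms, was higher on 4 of 5 probe sets. Its representative, the brightest probe set 1427260_a_at, read 12.61, 12.54 and 12.63 in controls and 12.97, 13.02 and 13.05 in shRNA samples. No array overlapped between the groups, and the signal rose by 0.42 (SE 0.039, limma adjusted p = 1.35e-06), 1.34-fold. The dimmer 1427567_a_at read 9.80, 9.68 and 9.58 in controls against 10.20, 10.26 and 10.21, a rise of 0.53 (SE 0.064, limma adjusted p = 1.48e-05) and the largest increase of the 19. The probe set 1436958_x_at, of a class open to cross-hybridization, was higher by 0.35 (SE 0.037). The fourth, 1449996_a_at, read 9.90, 9.85 and 9.82 in controls and 10.01, 10.16 and 9.96 after shRNA, higher by 0.19 (SE 0.065, limma adjusted p = 0.0251). Its call was lost without control 2 (0.19, limma adjusted p = 0.0642), control 3 (0.17, 0.0702) or shRNA array 2 (0.13, 0.139), and with the arrays centred (0.13, 0.0976) or quantile normalized (0.13, 0.0883). The fifth, 1449997_at, stood at 9.19 and 9.25 with overlapping arrays (0.061, 95% interval -0.092 to 0.22, limma adjusted p = 0.494).

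Tpm4 encodes a mainly nonmuscle tropomyosin of the actin cytoskeleton and was read by a lone probe set, 1433883_at. It read 12.20, 12.11 and 12.06 in controls and 11.71, 11.68 and 11.68 in shRNA samples. The groups were well apart, and Tpm4 fell by 0.43 (SE 0.044, limma adjusted p = 3.06e-06), 1.35-fold. The direction and the call held in each of 14 alternative settings, with differences from -0.50 to -0.39. Which muscle or nonmuscle forms the probe sets of Tpm3 and Tpm4 read was not analysed here. By their representative probe sets, Tpm3 and Tpm4 thus differed in opposite directions. Their within-array difference, Tpm3 minus Tpm4, was 0.41, 0.43 and 0.56 in controls and 1.25, 1.33 and 1.37 in shRNA samples, a shift of 0.85 (two-sided exact permutation p = 0.1, and 0.167 adjusted over the 5 pairs).

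Tpm1, which encodes the alpha-tropomyosin of fast and cardiac muscle and nonmuscle forms, did not move as a whole: of its 4 probe sets 2 were higher, 1 was lower and 1 did not pass. The probe set 1456623_at read 11.31, 11.26 and 11.25 in controls and 11.55, 11.49 and 11.54 in shRNA samples, a rise of 0.26 (SE 0.043, limma adjusted p = 0.000237). The brighter 1423721_at rose by 0.17 (SE 0.034, limma adjusted p = 0.00104), from 13.57, 13.53 and 13.49 to 13.68, 13.70 and 13.72. In both, every shRNA array lay above every control. The probe set 1447713_at went the other way, from 9.12, 9.30 and 9.37 to 8.97, 9.06 and 9.03 (-0.24, SE 0.079, limma adjusted p = 0.0197). That decrease no longer passed without control 2 (-0.22, limma adjusted p = 0.0662), control 3 (-0.19, 0.0822) or shRNA array 1 (-0.22, 0.0697). The brightest, 1423049_a_at, stood at 14.09 ± 0.028 and 14.07 ± 0.010 (-0.015, 95% interval -0.082 to 0.052, limma adjusted p = 0.717). Which exons each probe set reads was not analysed here.

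**Figure D3:**
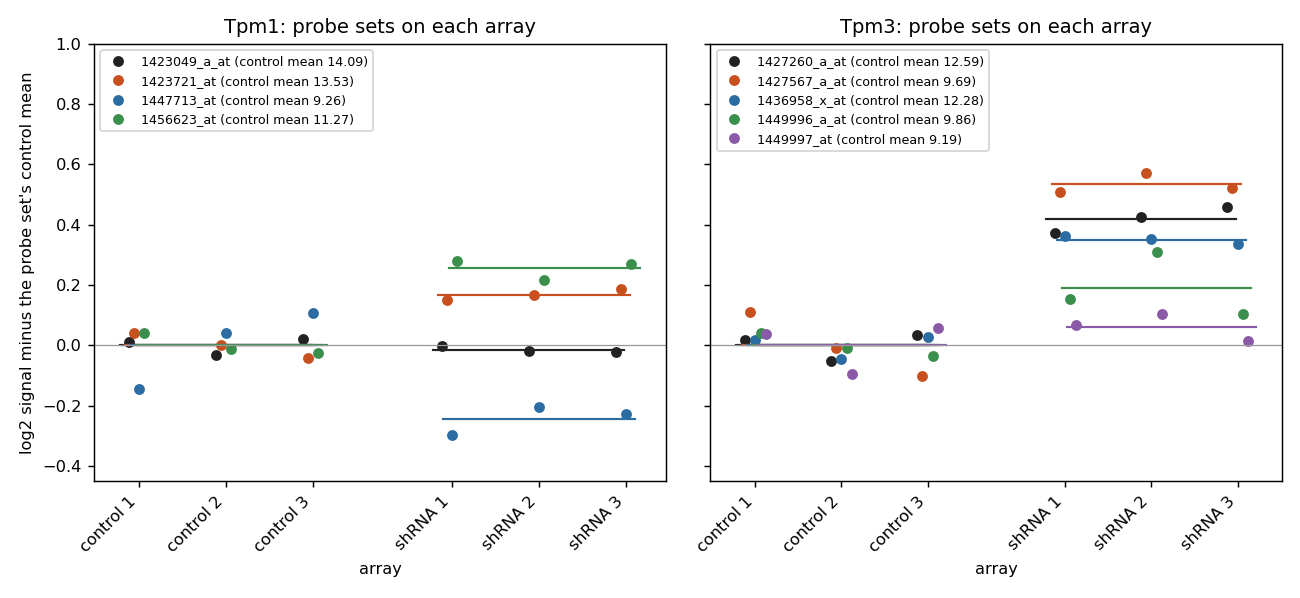
Log2 signal of each probe set of Tpm1 (left) and Tpm3 (right) on each array, minus that probe set's mean over 3 control arrays (vertical axis), with colours for probe sets and lines for group means. On the shRNA arrays the probe sets of Tpm1 spread from -0.24 to 0.26 and those of Tpm3 from 0.061 to 0.53.

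Whether probe sets of the same gene differed in their response was tested directly. On each array the mean of a gene's other tested probe sets was subtracted, and the resulting values of 16488 probe sets of all genes were fitted together, of which 23.2% passed the threshold. Of 13 such contrasts in Tpm1, Tpm2 and Tpm3, 4 passed. The contrasts of a gene cancel out when added, so higher and lower calls within a gene are not independent. In Tpm1, the level of 1456623_at relative to the rest of the gene rose from -1.02 in controls to -0.74 in shRNA samples. This was a rise of 0.29 (SE 0.058, limma adjusted p = 0.0119), and the relative level of 1447713_at fell by 0.38 (SE 0.10, limma adjusted p = 0.0309). In Tpm3, the relative level of 1427567_a_at rose from -1.29 to -1.01, by 0.28 (SE 0.068, limma adjusted p = 0.0227). That of 1449997_at fell by 0.31 (SE 0.065, limma adjusted p = 0.0130). In Tpm2 none of the 4 contrasts passed. The contrasts of 1456623_at and 1449997_at passed in each of 13 alternatives. Those of 1447713_at were lost without control 2 (-0.35, limma adjusted p = 0.0972) or 3 (-0.32, 0.0950) and without shRNA array 1 (-0.35, 0.0879), 2 (-0.41, 0.0636) or 3 (-0.38, 0.0733). For 1427567_a_at the call was lost without shRNA array 1 (0.28, limma adjusted p = 0.0588), 2 (0.28, 0.0635) or 3 (0.27, 0.0622). Without the filter on low signals, the contrasts of 1447713_at (limma adjusted p = 0.0503) and 1427567_a_at (0.0569) were lost as well.

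Tpm2 encodes beta-tropomyosin of skeletal muscle, and its probe sets were among the brightest on the array. Those named 1449577_x_at, 1425028_a_at and 1419738_a_at stood at 14.41, 14.38 and 14.20 in controls and at 14.41, 14.36 and 14.17 in shRNA samples. Their arrays overlapped between the groups, and their differences lay between -0.029 and -0.0055. The probe set 1419739_at, at 13.52, 13.47 and 13.52 in controls, read 13.36, 13.40 and 13.43 in shRNA samples and did not overlap. It fell by 0.11 (SE 0.034, limma adjusted p = 0.0150), a call lost without control 3 (-0.10, limma adjusted p = 0.0549), shRNA array 1 (-0.093, 0.0514) or shRNA array 2 (-0.11, 0.0517), and without a variance trend (0.0836). Relative to the other probe sets of Tpm2, its level changed by -0.094 from controls to shRNA samples (SE 0.048, limma adjusted p = 0.200). With the arrays centred, 1419738_a_at (-0.093, limma adjusted p = 0.0201) and 1425028_a_at (-0.083, 0.0417) also passed as lower. Tpm1 minus Tpm2, by 1423049_a_at and 1425028_a_at, differed by 0.0042 (two-sided exact permutation p = 1.0). With all probe sets of each gene averaged it differed by 0.082 (two-sided exact permutation p = 0.1, the smallest possible), so the value depended on the probe sets used.

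Lmod2 showed the largest difference of the 10 genes, while its relative Lmod3 did not pass. Lmod2, a leiomodin of heart and skeletal muscle, read 11.39, 11.31 and 11.37 on the control arrays and 10.02, 10.18 and 10.10 on the shRNA arrays (probe set 1452345_at). The groups were far apart for SDs of 0.043 and 0.080, and the signal fell by 1.26 (SE 0.054, 95% interval -1.37 to -1.14, limma adjusted p = 2.17e-09), 2.39-fold. Of all tested probe sets 0.588% were lower by as much or more. In 14 alternative settings Lmod2 stayed past the threshold, with differences from -1.32 to -1.22. Lmod3, a leiomodin of skeletal muscle in which mutations cause nemaline myopathy, read 12.95, 12.92 and 12.88 in controls and 12.87, 12.90 and 12.86 in shRNA samples. The arrays overlapped (-0.041, 95% interval -0.12 to 0.036, limma adjusted p = 0.360), although with the arrays centred Lmod3 passed as lower (-0.10, 0.0122). Lmod2 minus Lmod3 moved from -1.57, -1.61 and -1.51 to -2.85, -2.72 and -2.76, a shift of -1.22 (two-sided exact permutation p = 0.1, and 0.167 adjusted over the 5 pairs).

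Of the tropomodulins, Tmod1, the pointed-end cap of striated muscle and red cells, was slightly lower. Its probe set 1422754_at read 12.86, 12.77 and 12.85 in controls and 12.68, 12.73 and 12.65 in shRNA samples. The groups did not overlap, and Tmod1 fell by 0.14 (SE 0.039, limma adjusted p = 0.00874), which did not pass without a variance trend (adjusted p = 0.0535). Tmod4, the tropomodulin restricted to skeletal muscle, read 5.21, 5.09 and 5.02 in controls and 5.01, 5.18 and 5.25 in shRNA samples. These overlapping signals were near the lowest on the array, with 9.09% of probe sets at or below their mean, so the gene was not tested. When no filter was applied it differed by 0.045 (SE 0.12, limma adjusted p = 0.823). Whether its signal lay above background was not tested. For that reason no comparison of Tmod1 with Tmod4 is given, although the pair counts among the 5 over which p-values of pairs were adjusted.

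The size of a difference also ran with the signal. Of the 19 probe sets, 8 had a mean of 13 or more; 1 of these was higher, 3 were lower and 4 did not pass, with a median size of 0.058. The other 11 had a median size of 0.26, and 5 were higher, 4 lower and 2 not past. The same held over the array: 1522 tested probe sets with a mean of 13 or more had a median size of 0.072, with 18.5% higher and 22.1% lower, and 25501 below 13 had a median size of 0.22, with 31.1% higher and 23.6% lower. No array reached a signal above 14.64. Among the bright probe sets Actc1, with a size of 0.30, stood well above that median of 0.072, and Acta1, with 0.088, close to it. Whether the brightest probe sets could still follow a change in transcript level was not tested.

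**Figure D4:**
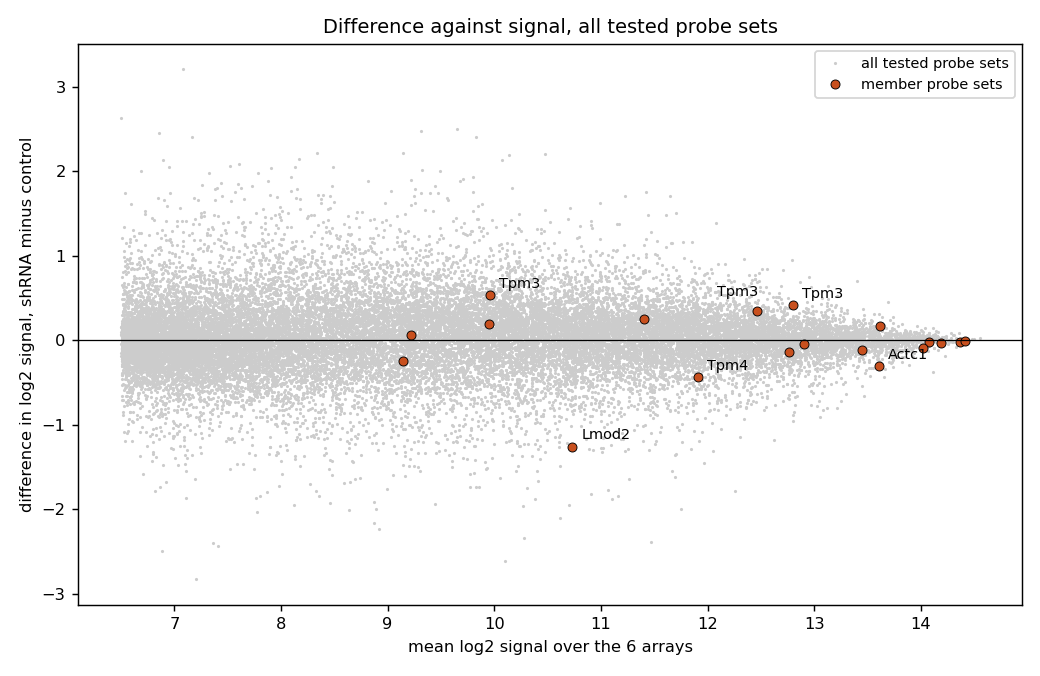
Difference in log2 signal, shRNA minus control (vertical axis), against the mean log2 signal over 6 arrays (horizontal axis), with grey points for all 27023 tested probe sets and orange points for the 19 of the genes described; names mark the larger differences. The grey cloud narrows above a signal of 13, where 8 of the orange points lie.

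Other genes of the actin filament also moved both ways. A list of 40 genes covered nonmuscle and smooth muscle actins, further tropomodulins and leiomodins, nebulin and its relatives, capping and severing proteins, monomer-binding proteins, formins and the SRF axis. By the brightest probe set of each gene (one with the suffix _x_at only where the gene had no other), 36 could be tested: 7 were higher, 10 lower and 19 not past the threshold. Nebl, Kbtbd13 and Myocd lay below the filter, and 1 gene is not analysed here. Over all 12408 genes 35.7% were higher and 22.8% lower, 58.5% in all. The median difference of the list was -0.0065, beside 0.046 over all genes, and among the 9 tested genes of the actins, tropomyosins, tropomodulins and leiomodins, read the same way, 1 was higher (Tpm3), 5 lower and 3 not past, with a median of -0.088. The sign of the list's median was not stable: it was 0.032 without control 1, 0.023 without shRNA array 1, 0.0060 without shRNA array 2, and -0.071 with the arrays centred.

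The largest decreases of the list, by the probe set taken for each gene, were those of Fhod3, Xirp1, Nrap and Gsn. Some probe sets not taken for their gene fell by more than that of Gsn. Fhod3, a formin that assembles actin in the sarcomere, read 11.00, 10.89 and 10.98 in controls and 9.60, 9.39 and 9.44 in shRNA samples. It fell by 1.48 (SE 0.064, limma adjusted p = 2.43e-09), 2.79-fold, with no overlap. Xirp1, an actin-binding repeat protein of muscle attachment sites, fell by 0.71 (SE 0.046, limma adjusted p = 5.88e-08). Nrap, a nebulin-related protein of early myofibrils, fell by 0.66 (SE 0.061, limma adjusted p = 1.42e-06). Gelsolin, Gsn, which severs filaments, fell by 0.39 (SE 0.082, limma adjusted p = 0.00121). Its other 4 tested probe sets, all with the suffix _x_at and so open to cross-hybridization, fell by 0.41 to 0.49. Neb, nebulin, the ruler-like protein along the thin filament, fell by 0.26 (SE 0.053, limma adjusted p = 0.00121).

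By these probe sets, Tmod3 rose most among the genes of the list. Tmod3, the widely expressed tropomodulin, read 10.53, 10.34 and 10.38 in controls and 11.25, 11.35 and 11.24 in shRNA samples, a rise of 0.86 (SE 0.058, limma adjusted p = 8.08e-08), 1.82-fold, and its other 2 tested probe sets also rose (0.43 and 0.75). Its paralog Tmod1 was lower by 0.14, as given above; the difference between the 2 was not tested. Pfn2, a profilin that binds actin monomers, rose by 0.71 (SE 0.050, limma adjusted p = 1.04e-07) with all 3 of its tested probe sets higher. Actg2, smooth muscle gamma-actin, rose by 0.44 (SE 0.090, limma adjusted p = 0.00114) and Cap1, which recycles actin monomers, by 0.43 (SE 0.086, limma adjusted p = 0.00102). Of the cofilin family, Cfl1 (0.14) and Dstn (0.28) rose, and Cfl2, the muscle cofilin, did not pass at 13.94 and 13.92 (-0.024, limma adjusted p = 0.657). Tmod2, the tropomodulin known from neurons, was dim and its probe sets differed: the brightest stood at 6.84 and 6.91 (0.073, limma adjusted p = 0.643), another at 6.44 and 6.69 (0.25, 0.174), and the third rose from 6.28 to 7.30, by 1.01 (SE 0.17, limma adjusted p = 0.000273). Each of the 8 genes named as the largest changes of the list stayed past the threshold in 13 alternative settings.

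The nonmuscle actins were bright and did not pass on their brightest probe sets: Actb differed by -0.0068 (95% interval -0.089 to 0.076) and Actg1 by -0.0081 (95% interval -0.080 to 0.064), with limma adjusted p of 0.898 and 0.860. The other tested probe set of Actb was higher, at 13.87 in controls and 14.04 in shRNA samples without overlap (0.17, SE 0.040, limma adjusted p = 0.00342). Acta2, smooth muscle alpha-actin, which myoblasts also make, stood at 14.28 and 14.34 on its brightest probe set (0.059, limma adjusted p = 0.145). A dim probe set of Acta2 passed as lower, falling from 9.23 to 8.71, by 0.52 (limma adjusted p = 0.000453). Lmod1, the smooth muscle leiomodin, stood at 10.49 and 10.46 (-0.034, limma adjusted p = 0.592), so that of the 3 leiomodins tested Lmod2 was the one past the threshold.

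**Figure D5:**
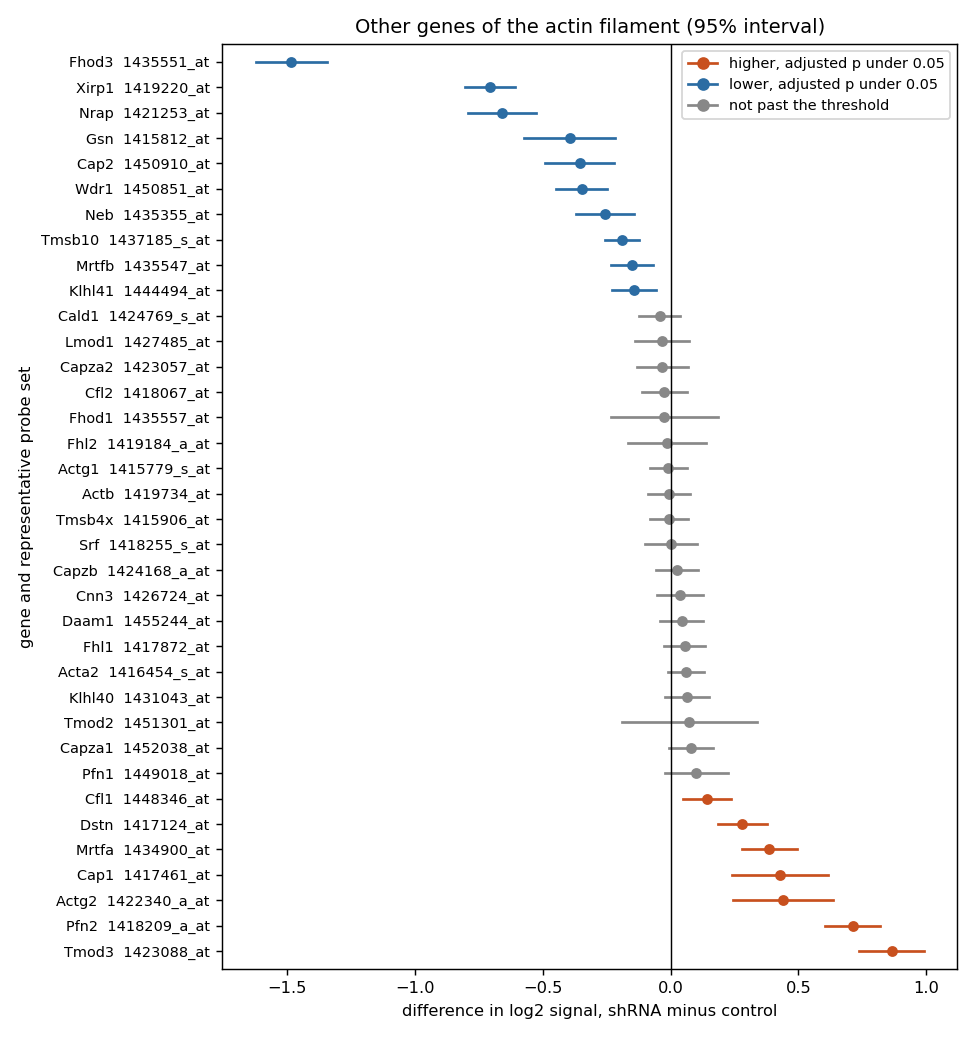
Difference in log2 signal, shRNA minus control (horizontal axis), for 36 other genes of the actin filament. Each gene is shown by its brightest probe set without the suffix _x_at, with points for the estimate and lines for limma's 95% interval. Blue marks 10 lower genes, from Fhod3 at -1.48, orange 7 higher genes, up to Tmod3 at 0.86, and grey 19 that did not pass.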

How the data were processed

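The authors deposited normalized log2 signals, a value for each array and probe set; that the scale is log2 was read from the values. PLIER and MAS5 appear in the submitters' processing notes, with no role or version, and the sources used here do not give the background correction or offset. All columns were matched to samples (0 unmatched). Gene names came from the platform annotation in GEO: 34958 had 1 gene symbol, 932 several and 9211 none; identifiers of 34754 were found in a GRCm38.p6 gene table, and 0 symbols changed.

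The 64 Affymetrix control probe sets and then the 40% with the lowest mean (18014) were left out, which kept means of 6.50 or more. Differences were tested with limma 3.58.1 in R 4.3.3 (lmFit, eBayes with a mean-variance trend), without covariates. The brightest probe set stood for each gene, with _x_at ones used only in the absence of others. Pairs of related genes and RNA integrity were compared by exact permutation. The calculations were tested on simulated data. All members were named, with the 4 largest increases and decreases of the actin filament list; Srf, Mrtfa, Mrtfb, Neb, Cfl1, Cfl2, Dstn, Tmod2, Actb, Actg1, Acta2 and Lmod1, and the markers named, were chosen after their values were seen. Members and lists were chosen with earlier results of these data known. LncMyoD itself is not analysed here, so group names rest on the labels. Alternatives covered scaling, the filter, the variance trend, a replicate block, the probe sets used and leaving out each array.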

Additional observations from a re-analysis of the deposited data

How the results depend on the processing

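Among the tested probe sets of the 10 genes, Actc1, Tpm4, Lmod2, 2 of Tpm1 (1423721_at and 1456623_at) and 3 of Tpm3 (1427260_a_at, 1427567_a_at and 1436958_x_at) kept their direction and call in every setting that tested them. The number of lower probe sets, 7, became 4 without a variance trend and ranged from 4 to 6 when each array was left out; the number of higher ones, 6, ranged from 5 to 6. Within-gene contrasts past the threshold, 4, became 2 with no filter on low signals and ranged from 2 to 5 with an array left out. Among the values recomputed, which leave out the markers and the genes named after their values were seen, those that changed sign lay near 0: the median of the actin filament list (-0.0065; -0.017 to 0.032 with an array left out, and -0.071 with arrays centred), Tpm2 1425028_a_at (-0.032 to 0.00034 with an array left out), Tpm2 1449577_x_at (-0.026 to 0.0093; above 0 without control 1, control 3 or shRNA array 1), Tpm3 1449997_at (-0.0027 with arrays centred, -0.0065 quantile normalized) and the pair Tpm1 minus Tpm2 (-0.010 quantile normalized, -0.021 to 0.018 with an array left out, and 0.082 with all probe sets averaged). The cause of these changes was not tested. Over the genes, probe sets and contrasts named and all their alternatives, 32 values lost a call and 7 gained one. Arrays of the same number shared only that number (correlations of their deviations -0.13, -0.061 and 0.031), so no pairing was used. With the replicate number as a block, 6 probe sets were higher and 5 lower, Acta1 (adjusted p = 0.115) and Tpm2 1419739_at (0.0513) losing their calls in limma. Over the actin filament list the block gave 7 higher and 10 lower genes. Signal over background could not be measured, which limits Tmod4.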
